A study of Homo sapiens with 12 samples.

Results

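The genes described here are 40 targets and components of the stress pathways built around the transcription factor ATF4 and the unfolded protein response. They were chosen by symbol from general knowledge of these pathways, with no measured value in the rule. Earlier results of these data were known when the choice was made. All 40 were found among the 27788 gene symbols counted. They fall into 3 sets. The ATF4 amino acid arm has 21 genes, the endoplasmic reticulum (ER) chaperone arm has 15, and a set of 4 holds the stress sensors EIF2AK3, ERN1 and ATF6 with the phosphatase subunit PPP1R15A.

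The RNA came from the human cancer lines HCT116 (colorectal carcinoma) and U-87 MG (glioblastoma). In each line, 3 libraries from cells with CRISPR-Cas9 mutations in GSTO1 (GSTO1 KO) were compared with 3 libraries labelled wild type. GSTO1 encodes glutathione S-transferase omega 1, a thiol transferase of the cytosol. Per the labels' protocols, both lines were first made to express Cas9 from a lentivirus under blasticidin selection. They then received a tracrRNA with a crRNA against exon 2 of GSTO1, or with a crRNA that has no target, and single colonies were picked and screened for loss of GSTO1. Whether the wild-type libraries came from untreated cells or from cells given the control crRNA, and how many colonies or cultures stand behind each group of 3, the labels leave unsaid. The p-values therefore rest on differences among libraries that may be technical replicates, and an effect of the knockout cannot be told apart from a trait of the picked colonies. Both groups of a line share the culture medium named in the labels as far as it is given, and no further drug or stress is named.

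Libraries held 17814142 to 28097179 counts. GSTO1 itself stood at 12.0 to 13.1 FPKM (fragments scaled by gene length and library depth) in HCT116 KO against 60.3 to 63.8 in wild type, and at 22.1 to 24.0 in U-87 MG KO against 124 to 153. The log2 fold changes were -2.01 ± 0.07 and -2.44 ± 0.07, so the targeted mRNA was low in each library labelled KO. Wild-type library 3 of U-87 MG stood apart from the other 2 of its group (chi-square per degree of freedom of 8.21 and 9.31, against 2.38 between the other 2). By the same measure library 3 stood apart in HCT116 KO (5.56 and 5.40 against 1.80) and in HCT116 wild type (3.63 and 3.46 against 1.48). Calls that change on leaving out any of these 3 libraries are given without it. Of the markers of the labelled origins, the colon genes CDX1 and VIL1 were near 0 in HCT116. In U-87 MG the glial gene GFAP was near 0, as was SOX2 in wild type. Of 9 epithelial markers, 7 exceeded 0.5 FPKM in HCT116 and 2 in U-87 MG. Of 9 glioma and mesenchyme markers, 6 exceeded it in each line, so that count does not separate the lines. Their summed level did, at 113 to 187 FPKM in HCT116 libraries and 6462 to 7734 in U-87 MG libraries. The 5 leukocyte markers summed to at most 0.507 FPKM in any library. The share of counts on RNR2, a mitochondrial ribosomal RNA, stood above wild type in the KO libraries of both lines (1.36% to 1.54% against 0.981% to 1.06% in HCT116, 0.419% to 0.435% against 0.254% to 0.322% in U-87 MG), and its part in the results below was not tested.

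ATF4 is translated when the initiation factor eIF2 is phosphorylated, which happens under amino acid shortage, ER stress, haem shortage or viral RNA through different kinases. It then drives genes for amino acid synthesis and import, together with transcription factors such as ATF3, DDIT3 and CEBPB. The unfolded protein response answers misfolded protein in the ER through 3 sensors. EIF2AK3 (PERK) phosphorylates eIF2, ERN1 (IRE1) splices XBP1 mRNA, and ATF6 is cut to release a transcription factor, and the latter pathways raise chaperones and degradation factors. Much of the control of ATF4 and XBP1 acts on translation, splicing or protein stability, which gene-level RNA counts do not show.

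Both arms are known for short promoter elements, so the 250 bases before each annotated start were searched in the RefSeq promoter table (GRCh38.p14), which held 52 windows for 37 of the 40 genes. The C/EBP-ATF response element bound by ATF4 and C/EBP dimers was searched as TGATGNAA on both strands. It was found in 6 of the 37 genes (16.2%), namely ASNS, ATF3, CEBPG, CHAC1 and SLC1A5 of the ATF4 arm and HERPUD1 of the ER arm. The share among all 27305 genes of the table was 3.89%. The sites are printed 5′ to 3′ on the strand of the gene with the match in capitals, because 4 of these 6 genes are among the 8 called higher in HCT116 below. The match in CHAC1 and HERPUD1 is on the opposite strand, and the sites of ASNS, CHAC1 and SLC1A5 lie in annotated exons, so only 30 bases are shown. They lie at chr7:97872458-97872487 (ASNS, minus strand), chr15:40953251-40953280 (CHAC1, plus strand), chr19:46784893-46784922 (SLC1A5, minus strand), chr1:212565157-212565283 (ATF3, plus strand), chr19:33374011-33374112 (CEBPG, plus strand) and chr16:56931906-56932033 (HERPUD1, plus strand).
ASNS: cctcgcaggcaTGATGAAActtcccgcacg
CHAC1: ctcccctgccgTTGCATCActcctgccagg
SLC1A5: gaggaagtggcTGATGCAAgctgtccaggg
ATF3: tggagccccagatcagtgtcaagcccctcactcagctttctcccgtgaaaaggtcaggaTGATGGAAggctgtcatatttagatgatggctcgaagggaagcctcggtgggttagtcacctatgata
CEBPG: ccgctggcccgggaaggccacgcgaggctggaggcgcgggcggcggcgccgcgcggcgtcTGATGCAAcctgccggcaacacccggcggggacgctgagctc
HERPUD1: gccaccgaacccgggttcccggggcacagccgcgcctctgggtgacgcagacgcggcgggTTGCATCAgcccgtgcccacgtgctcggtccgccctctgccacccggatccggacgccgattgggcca

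The ER stress response element, bound by NF-Y with ATF6 or XBP1, was searched as CCAAT and CCACG with 9 bases of any kind between them, on both strands. It was found in 6 of the 15 ER arm genes, in no gene of the other sets, and in 0.0916% of all genes of the table. The genes were CALR, CRELD2, HSP90B1 (which had a match on each strand), HSPA5, PDIA6 and XBP1. A further element, TGACGTGG, was found in none of the 37 genes and in 0.780% of all genes. The ER matches are printed because CALR, HSP90B1, HSPA5 and PDIA6 stood lower in HCT116 KO and higher in U-87 MG KO, while XBP1 went the other way and CRELD2 was lower in both. Both HSP90B1 sites lie in annotated exons and those of HSPA5, PDIA6 and XBP1 lie close to one, so 30 bases are shown for each. A match describes letters in the window and is not evidence of a bound site. The sites lie at chr9:125241385-125241414 (HSPA5, minus strand), chr12:103930211-103930240 and chr12:103930316-103930345 (HSP90B1, plus strand), chr2:10812847-10812876 (PDIA6, minus strand), chr22:28800597-28800626 (XBP1, minus strand), chr19:12938359-12938462 (CALR, plus strand) and chr22:49918494-49918632 (CRELD2, plus strand).
HSPA5: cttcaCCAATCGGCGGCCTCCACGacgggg
HSP90B1 (first): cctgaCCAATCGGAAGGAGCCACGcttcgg
HSP90B1 (second): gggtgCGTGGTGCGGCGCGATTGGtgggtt
PDIA6: ccggaCCAATGAGCCGCAGCCACGgcttgg
XBP1: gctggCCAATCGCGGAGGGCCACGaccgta
CALR: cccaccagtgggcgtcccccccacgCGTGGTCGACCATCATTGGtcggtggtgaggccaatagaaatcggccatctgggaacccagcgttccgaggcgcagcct
CRELD2: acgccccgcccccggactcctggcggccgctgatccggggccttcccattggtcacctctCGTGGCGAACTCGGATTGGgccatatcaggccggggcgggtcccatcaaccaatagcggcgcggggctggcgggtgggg

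In HCT116, 7 genes of the ATF4 amino acid arm rose in GSTO1 KO cells and none fell, of 20 that could be tested. These were CHAC1, ATF3, SESN2, NUPR1, STC2, ASNS and CEBPB. In bulk libraries such as these, more RNA in every cell and more cells that express a gene cannot be told apart. A call needed an adjusted p below 0.05 from edgeR's quasi-likelihood test, more than a 1.5-fold change and a mean over 0.5 FPKM in that line, and 11.9% of the 14068 genes tested in HCT116 passed, 7.82% higher and 4.07% lower. The median log2 fold change of the arm was 0.46, against 0.01 over all genes tested. At the adjusted p alone, 17 of the 20 were higher and 0 lower, against 29.2% and 28.1% of all genes. The FPKM ranges of KO and wild type were apart in 15 of the 20, 14 with KO above and 1 with KO below, against 62.7% of all genes. The gene not tested, VLDLR, a lipoprotein receptor, had 0 counts in all 6 HCT116 libraries, where the limit that 0 counts allow was 0.115 to 0.168 CPM (counts scaled to library size).

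ATF4 mRNA itself (chr22:39519695-39522683, plus strand) stood at 412, 423 and 425 FPKM in KO libraries of HCT116 and at 309, 312 and 311 in wild type. All KO libraries were above all wild-type ones, and the level was 419.8 ± 7.01 against 311 ± 1.93 FPKM (mean ± SD, n = 3, as for all means below). The log2 fold change was 0.48 ± 0.04 (± SE; edgeR adjusted p = 5.2e-10), or 1.40-fold, which is under the fold threshold. Of the 50-base stretches of ATF4, 15.1% also occur at another locus such as the pseudogene ATF4P4, and how such reads were counted is not stated.

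CHAC1, which cleaves glutathione, had the largest change of the 40 genes. It was at 20.3, 21.0 and 21.5 FPKM in KO libraries and at 3.27, 3.30 and 3.49 in wild type, and the groups were far apart. The fitted fold was 6.46, with a log2 fold change of 2.69 ± 0.08 (edgeR adjusted p = 3.9e-16). ATF3, a stress-induced repressor and activator of the same bZIP family as ATF4, was at 19.9, 18.8 and 19.9 FPKM against 6.84, 6.87 and 6.73. It rose by 1.55 ± 0.07 on the log2 scale (edgeR adjusted p = 1.6e-13). SESN2, a leucine sensor that restrains mTORC1, was at 15.1, 14.7 and 16.6 FPKM against 5.64, 6.10 and 6.36, a log2 fold change of 1.42 ± 0.07 (edgeR adjusted p = 8.8e-13). These 3 genes were higher in every KO library than in any wild-type library.

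STC2, a secreted glycoprotein induced by ER stress, was close to doubled, at 19.2, 19.5 and 18.9 FPKM against 10.0, 10.2 and 10.1 (log2 fold change 0.97 ± 0.05, edgeR adjusted p = 1.3e-12). ASNS, which makes asparagine from aspartate and glutamine, was at 74.5, 75.4 and 73.9 FPKM against 43.9, 46.6 and 43.4 (log2 fold change 0.82 ± 0.04, edgeR adjusted p = 5.3e-12). Both were tightly grouped within KO and within wild type. CEBPB, a bZIP partner of ATF4, was at 11.1, 9.61 and 12.9 FPKM against 6.85, 6.56 and 8.21. The log2 fold change of 0.70 ± 0.10 (edgeR adjusted p = 5.8e-06) dropped under the fold threshold when KO library 3 was left out, at 0.58, and with limma at a pseudocount of 1, at 0.57. An antisense gene, CEBPB-AS1, covers 12.6% of its exon bases. NUPR1, a small stress-induced chromatin protein, is the weakest of the 7. It had 3 to 23 counts in the HCT116 libraries and 0.633 to 1.30 FPKM in KO against 0.291 to 0.722 in wild type, so the groups overlapped. Its call (log2 fold change 1.03 ± 0.41, edgeR adjusted p = 0.0373) was lost without KO library 1, without KO library 3 and without wild-type library 3 (0.86, 0.95 and 0.66), and with DESeq2 (1.05) and limma (0.38 and 0.80).

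DDIT3 (CHOP), the factor tied to cell death under ER stress, came closest to a call among the rest. It was at 17.2, 18.9 and 19.4 FPKM in HCT116 KO and 13.0, 12.1 and 13.5 in wild type, with no overlap. The log2 fold change of 0.58 ± 0.08 (edgeR adjusted p = 3.8e-06) is just short of the 1.5-fold threshold and passed it without KO library 1 (0.61) or wild-type library 3 (0.61). The gene MARS1 lies antisense over 31.6% of the exon bases of DDIT3. TRIB3, a pseudokinase that dampens ATF4, was at 23.2 ± 0.987 against 17.4 ± 0.584 FPKM, a log2 fold change of 0.49 ± 0.06 (edgeR adjusted p = 8.2e-07).

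Of the arm's genes for amino acid synthesis and import, ASNS alone was called in HCT116. None of the 5 genes of serine synthesis and one-carbon metabolism was called in HCT116. PSAT1 and PHGDH, which carry out early steps of serine synthesis, had log2 fold changes of 0.43 ± 0.04 and 0.36 ± 0.05 (edgeR adjusted p = 4.9e-08 and 2e-06). PSPH, SHMT2 and MTHFD2 lay between -0.08 and 0.11. The amino acid transporters SLC7A5, SLC3A2, SLC7A1 and SLC1A5 lay between -0.06 and 0.15, with 3 of the 4 under an adjusted p of 0.05. CEBPG, a further bZIP partner of ATF4, was at 18.1 ± 0.303 against 15.7 ± 0.527 FPKM (log2 fold change 0.25 ± 0.05, edgeR adjusted p = 0.00034).

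**Figure D1:**
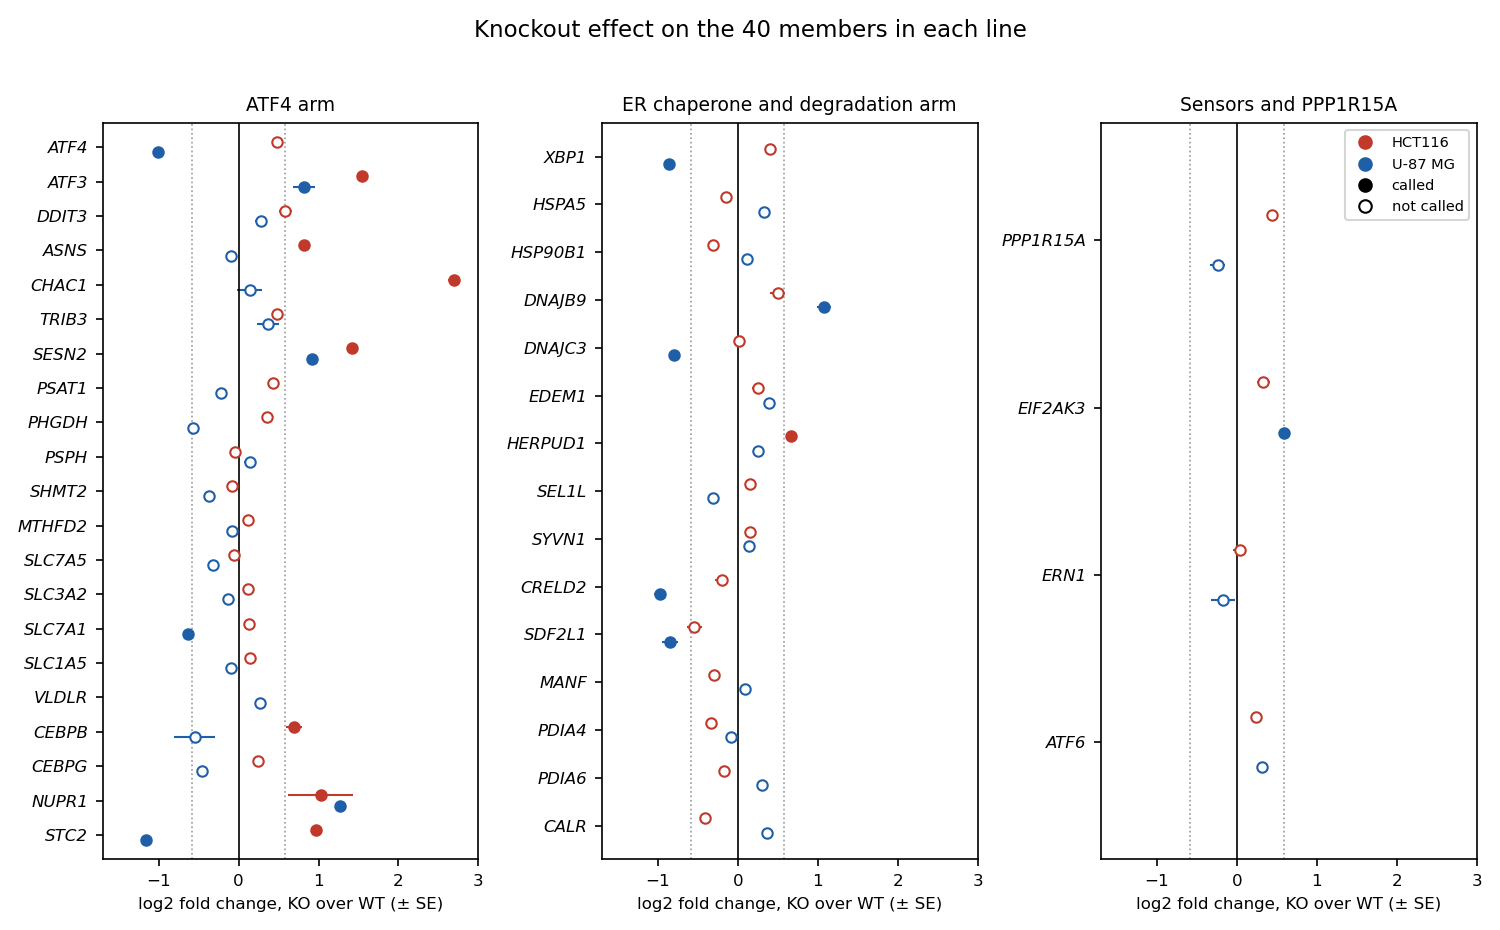
Log2 fold changes of KO over wild type (± SE) for the 40 genes in HCT116 (red) and U-87 MG (blue), with filled points for called genes and dotted lines at the 1.5-fold threshold. In the left panel the HCT116 points of CHAC1 (2.69), ATF3 (1.55) and SESN2 (1.42) lie farthest to the right, and ATF4 and STC2 are on opposite sides of 0 in the 2 lines.

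In the ER chaperone arm of HCT116, 1 of 15 genes rose and 0 fell, against 7.82% and 4.07% of all genes, and the median log2 fold change was -0.15. The riser was HERPUD1, a membrane protein of ER-associated degradation. It was at 39.2, 37.9 and 37.3 FPKM in KO and at 25.1, 25.9 and 23.4 in wild type, with a log2 fold change of 0.67 ± 0.06 (edgeR adjusted p = 4.2e-09). HERPUD1 is also the ER arm gene with the C/EBP-ATF element printed above. It had no match to the ER stress element, but only 1 spacing of that element was searched. HERPUD1 is therefore not shown to lack other forms of it.

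In this arm, 6 genes for proteins of the ER lumen stood lower in HCT116 KO cells, each by less than 1.5-fold. They are CALR, HSPA5, HSP90B1, PDIA4, PDIA6 and MANF, called lumenal folding proteins below for short. SDF2L1, also lower at -0.54, is not counted with them. The 6 were not grouped in advance, and similar genes of the wider ER list below went both ways. HYOU1, P4HB, ERP44, DNAJC10 and PDIA5 had log2 fold changes of 0.0004, -0.03, 0.25, 0.27 and 0.33. DNAJB11, PDIA3 and TXNDC5 had -0.45, -0.24 and -0.22. Calreticulin (CALR), a lectin chaperone, was the most abundant of the 40 genes in wild-type cells and was at 408, 402 and 431 FPKM against 569, 557 and 565. That is a log2 fold change of -0.41 ± 0.03 (edgeR adjusted p = 4.5e-09). HSPA5 (BiP), the central ER chaperone and the usual marker of the unfolded protein response, was at 189.7, 187 and 185 FPKM against 217, 217 and 210.5, a log2 fold change of -0.15 ± 0.03 (edgeR adjusted p = 0.00089). In both genes every KO library was below every wild-type library. HSP90B1 (GRP94), PDIA4, PDIA6 and MANF had log2 fold changes of -0.31, -0.33, -0.18 and -0.30. All 6 were under an adjusted p of 0.05 in edgeR, and all 6 were negative under every normalization, filter and left-out library tried. Over all genes, 28.1% were lower at that adjusted p. Since the 6 were not grouped in advance, their count cannot be set against that share. The antisense gene ATP6V1C2 covers 25.2% of the exon bases of PDIA6, and UQCC6 covers 6.95% of those of HSP90B1.

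The other 9 genes of this arm were mixed, with 7 positive and 2 negative (SDF2L1 and CRELD2). XBP1, the factor spliced by ERN1, was at 34.4, 33.7 and 31.7 FPKM in KO against 24.8, 26.0 and 26.2 (log2 fold change 0.41 ± 0.05, edgeR adjusted p = 2.9e-06). DNAJB9, a co-chaperone of HSPA5, was at 4.67, 4.61 and 4.94 FPKM against 3.16, 3.80 and 3.16. Its log2 fold change of 0.50 ± 0.10 (edgeR adjusted p = 0.00018) passed the fold threshold without wild-type library 2, at 0.60. SDF2L1, which works with HSPA5 and its J-domain partners, was at 19.0, 20.8 and 25.5 FPKM against 31.4, 31.0 and 37.2. Its log2 fold change of -0.54 ± 0.10 (edgeR adjusted p = 7.4e-05) passed the threshold without KO library 3 (-0.67), wild-type library 1 (-0.59) or wild-type library 2 (-0.60). The degradation genes EDEM1, SEL1L and SYVN1 lay between 0.16 and 0.25, CRELD2 was at -0.20 ± 0.08 and DNAJC3 at 0.01 ± 0.05.

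None of the 4 sensors and regulators of eIF2 was called in HCT116. EIF2AK3 had a log2 fold change of 0.33 ± 0.08 (edgeR adjusted p = 0.00121) and ATF6 of 0.24 ± 0.06 (edgeR adjusted p = 0.00179). ERN1 was at 2.88 ± 0.196 FPKM in KO and 2.88 ± 0.112 in wild type. PPP1R15A (GADD34), which returns the phosphatase to eIF2 and is an ATF4 target, was at 28.3 ± 1.17 against 21.6 ± 0.895 FPKM, a log2 fold change of 0.44 ± 0.05 (edgeR adjusted p = 7.1e-07).

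Split by the printed elements, the 37 genes with a promoter window are described by counts alone. In HCT116, 4 of the 6 with the element were called higher and all 6 were positive (median log2 fold change 0.75), against 3 of the 30 tested without it (median 0.16). Of the 6 with the ER stress element none was called, 5 were negative, and the median was -0.19, against 0.29 for the 30 without it. The exception was XBP1. Of the 6 with the C/EBP-ATF element, 5 belong to the ATF4 arm, whose median in HCT116 was 0.46. All 6 with the ER stress element belong to the ER arm, whose median was -0.15. A difference by element and a difference by arm cannot be told apart in this split. In U-87 MG the picture differed. Of the 6 with the C/EBP-ATF element, 1 was called higher, 3 were positive and 3 negative, and the median was 0.02. Of the 6 with the ER stress element, 2 were called lower (XBP1 and CRELD2, both on chromosome 22), 4 were positive, and the median was 0.21.

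In U-87 MG the ATF4 arm did not move one way. Of its 21 genes, 3 rose (NUPR1, SESN2 and ATF3) and 3 fell (STC2, ATF4 and SLC7A1). In this line 16.2% of the 13741 genes tested were called, 8.06% higher and 8.15% lower. The median log2 fold change of the arm was -0.10, against 0.01 over all genes. At the adjusted p alone 6 were higher and 10 lower, against 29.0% and 30.2% of all genes. The KO and wild-type libraries did not overlap in FPKM for 14 of the 21 genes, 5 with KO above and 9 with KO below, against 63.9% of all genes, so the lack of overlap on its own sets these genes little apart.

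NUPR1 was expressed well in this line and rose from 30.9, 32.3 and 30.9 FPKM in wild type to 76.2, 78.2 and 75.6 in KO. The log2 fold change was 1.27 ± 0.06 (edgeR adjusted p = 5.5e-14). SESN2 rose from 4.88, 5.28 and 5.74 FPKM to 9.83, 10.5 and 10.3 (0.92 ± 0.07 on the log2 scale, edgeR adjusted p = 1.5e-10). ATF3 was at 3.52, 4.17 and 4.11 FPKM against 2.25, 2.43 and 1.77 (log2 fold change 0.82 ± 0.13, edgeR adjusted p = 1.4e-05). In all 3 genes the KO libraries lay above the wild-type libraries, and these are also the 3 ATF4 arm genes called higher in both lines. The HCT116 call of NUPR1 is weak, however, with 3 to 23 counts per library, and was lost under several alternatives as given above. CHAC1, which rose most in HCT116, was at 2.12, 2.02 and 2.63 FPKM against 1.80, 2.18 and 1.98 here. Its groups overlapped and its log2 fold change was 0.14 ± 0.16 (edgeR adjusted p = 0.46). ASNS was at 29.4, 31.4 and 29.3 against 33.5, 32.6 and 29.0 FPKM, also with overlap (-0.10 ± 0.06, edgeR adjusted p = 0.131).

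STC2 fell in U-87 MG, from 15.2, 15.6 and 14.3 FPKM to 6.52, 6.92 and 7.08, where it had risen in HCT116. The log2 fold change was -1.16 ± 0.06 (edgeR adjusted p = 6.3e-14). SLC7A1, a transporter of arginine and lysine, fell from 30.7, 30.9 and 32.1 FPKM to 20.6, 20.3 and 20.5, a log2 fold change of -0.63 ± 0.04 (edgeR adjusted p = 5.4e-12). The other 3 transporters lay between -0.31 and -0.10 and were not called. PHGDH was at 49.3, 55.4 and 55.8 FPKM in KO against 79.5, 84.2 and 70.4. Its log2 fold change of -0.57 ± 0.06 (edgeR adjusted p = 2.2e-06) lies just under the fold threshold and passed it without KO library 2 (-0.60), KO library 3 (-0.60) or wild-type library 3 (-0.65). CEBPB was at 10.3, 10.0 and 10.6 FPKM against 12.6, 11.7 and 20.6, the last being the library that stood apart, and was not called (-0.55 ± 0.25, edgeR adjusted p = 0.131).

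ATF4 was at 63.1, 63.8 and 61.7 FPKM in U-87 MG KO and at 124, 124 and 123 in wild type. The groups were wide apart, with a log2 fold change of -1.01 ± 0.04 (edgeR adjusted p = 5.8e-15) and a level in wild type 2.01-fold that in KO. ATF4 lies on chromosome 22, and the genes of that chromosome stood lower as a whole in U-87 MG KO. The median over its 314 tested genes was -0.97, and 225 of them (71.7%) were called lower. The same chromosome had a median of -0.01 in HCT116. The 117 genes within 5 Mb of ATF4 had a median of -0.98 in U-87 MG, so the value of ATF4 differs from that of its neighbours by -0.03.

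Of the ER arm in U-87 MG, 1 gene rose and 4 fell, of 15, against 8.06% and 8.15% of all genes. The single riser is near the share over all genes. At the adjusted p alone 7 were higher and 6 lower, against 29.0% and 30.2%. Of the 4 that fell, 3 also lie on chromosome 22. XBP1 (chr22:28794555-28800597, minus strand) fell from 30.7, 31.0 and 31.2 FPKM to 17.2, 17.4 and 17.0, a log2 fold change of -0.86 ± 0.06 (edgeR adjusted p = 1.5e-11). CRELD2, a secreted ER stress protein (chr22:49918167-49927540, plus strand), was at 16.9, 15.1 and 16.4 against 31.9, 32.4 and 28.3 FPKM (-0.98 ± 0.07, edgeR adjusted p = 1.5e-10). SDF2L1 (chr22:21642302-21644299, plus strand) was at 8.95, 9.24 and 8.55 against 14.98, 15.5 and 16.7 FPKM (-0.84 ± 0.10, edgeR adjusted p = 2.5e-07). The genes within 5 Mb of these 3 had medians of -0.96, -1.002 and -0.94. A change at ATF4, XBP1, CRELD2 and SDF2L1 and a change of the whole chromosome cannot be told apart here.

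DNAJC3 (P58IPK), an inhibitor of eIF2 kinases and co-chaperone of HSPA5 on chromosome 13, fell from 10.7, 10.9 and 10.5 FPKM to 6.28, 6.25 and 6.16 (log2 fold change -0.80 ± 0.05, edgeR adjusted p = 2.4e-11). It too has low neighbours, since the 24 genes within 5 Mb had a median of -0.73. The 32 neighbours of PHGDH had a median of -0.52. STC2 and SLC7A1 differ from theirs, which had medians of -0.02 and -0.14. Among the 36 genes not on chromosome 22, 5 rose and 3 fell in U-87 MG, against 8.06% and 8.15% of all genes, so the number that fell is near the share over all genes.

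**Figure D2:**
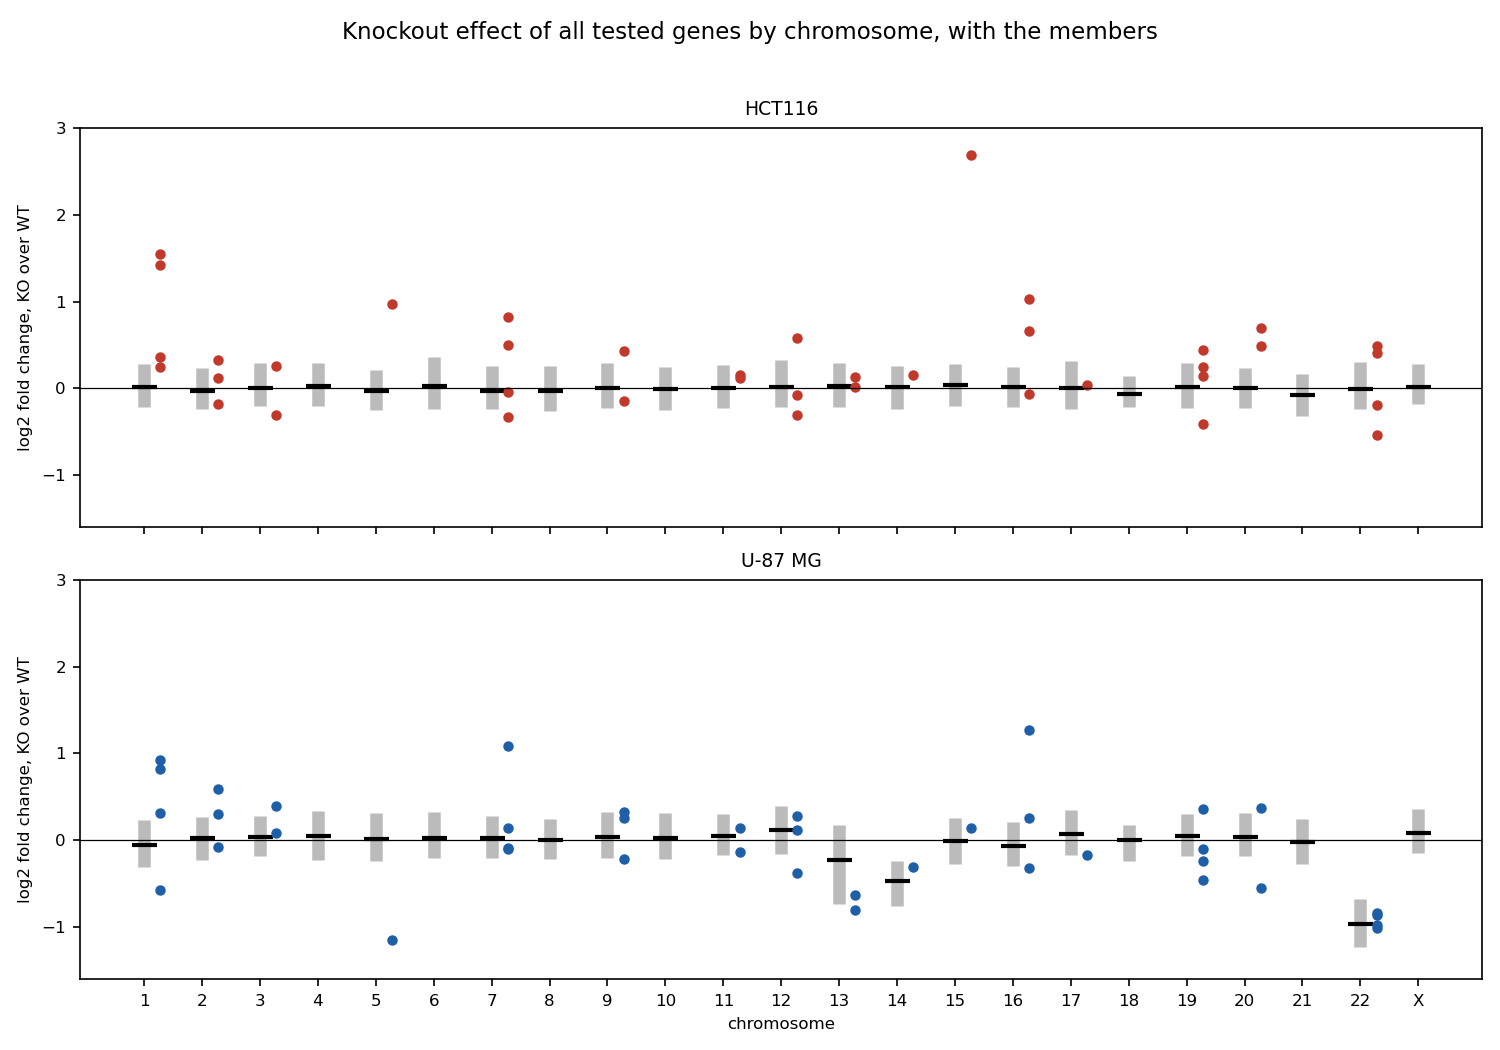
Median log2 fold change of KO over wild type by chromosome in each line, with the genes described here as points over their chromosome. In U-87 MG chromosome 22 has a median of -0.97 and ATF4, XBP1, CRELD2 and SDF2L1 lie at that level, while in HCT116 its median is -0.01.

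The gene of the ER arm that rose in U-87 MG was DNAJB9, from 3.18, 3.77 and 3.39 FPKM to 7.69, 7.40 and 7.36, a log2 fold change of 1.08 ± 0.09 (edgeR adjusted p = 6.8e-10). The 6 lumenal folding proteins were not called here either, and 5 of the 6 were positive, between -0.08 and 0.36. CALR was at 814, 805 and 806 FPKM in KO against 603, 605 and 650.0 (0.36 ± 0.04, edgeR adjusted p = 1.1e-08). HSPA5 was at 264, 259 and 263 FPKM against 208, 207 and 205, a log2 fold change of 0.32 ± 0.03 (edgeR adjusted p = 2.9e-08). In both genes the KO libraries lay above the wild-type ones, the reverse of HCT116. Only PDIA4 was negative in both lines (-0.08 ± 0.04 here, edgeR adjusted p = 0.0475).

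Of the sensors, EIF2AK3 was called higher in U-87 MG, at 8.39, 8.40 and 8.45 FPKM against 5.61, 5.37 and 5.79. Its log2 fold change of 0.59 ± 0.06 (edgeR adjusted p = 5.1e-08) sits on the fold threshold and fell under it without wild-type library 2 (0.55) and with limma (0.52 and 0.58). ATF6 was at 15.2 ± 0.122 against 12.0 ± 1.07 FPKM (0.31 ± 0.05, edgeR adjusted p = 1.9e-05). ERN1 was low, at 0.818 ± 0.0662 against 0.845 ± 0.0891 FPKM, with 78 counts in the lowest library. PPP1R15A was at 12.6, 14.04 and 14.5 FPKM against 14.9, 14.2 and 18.7, and the groups overlapped (-0.24 ± 0.09, edgeR adjusted p = 0.038).

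**Figure D3:**
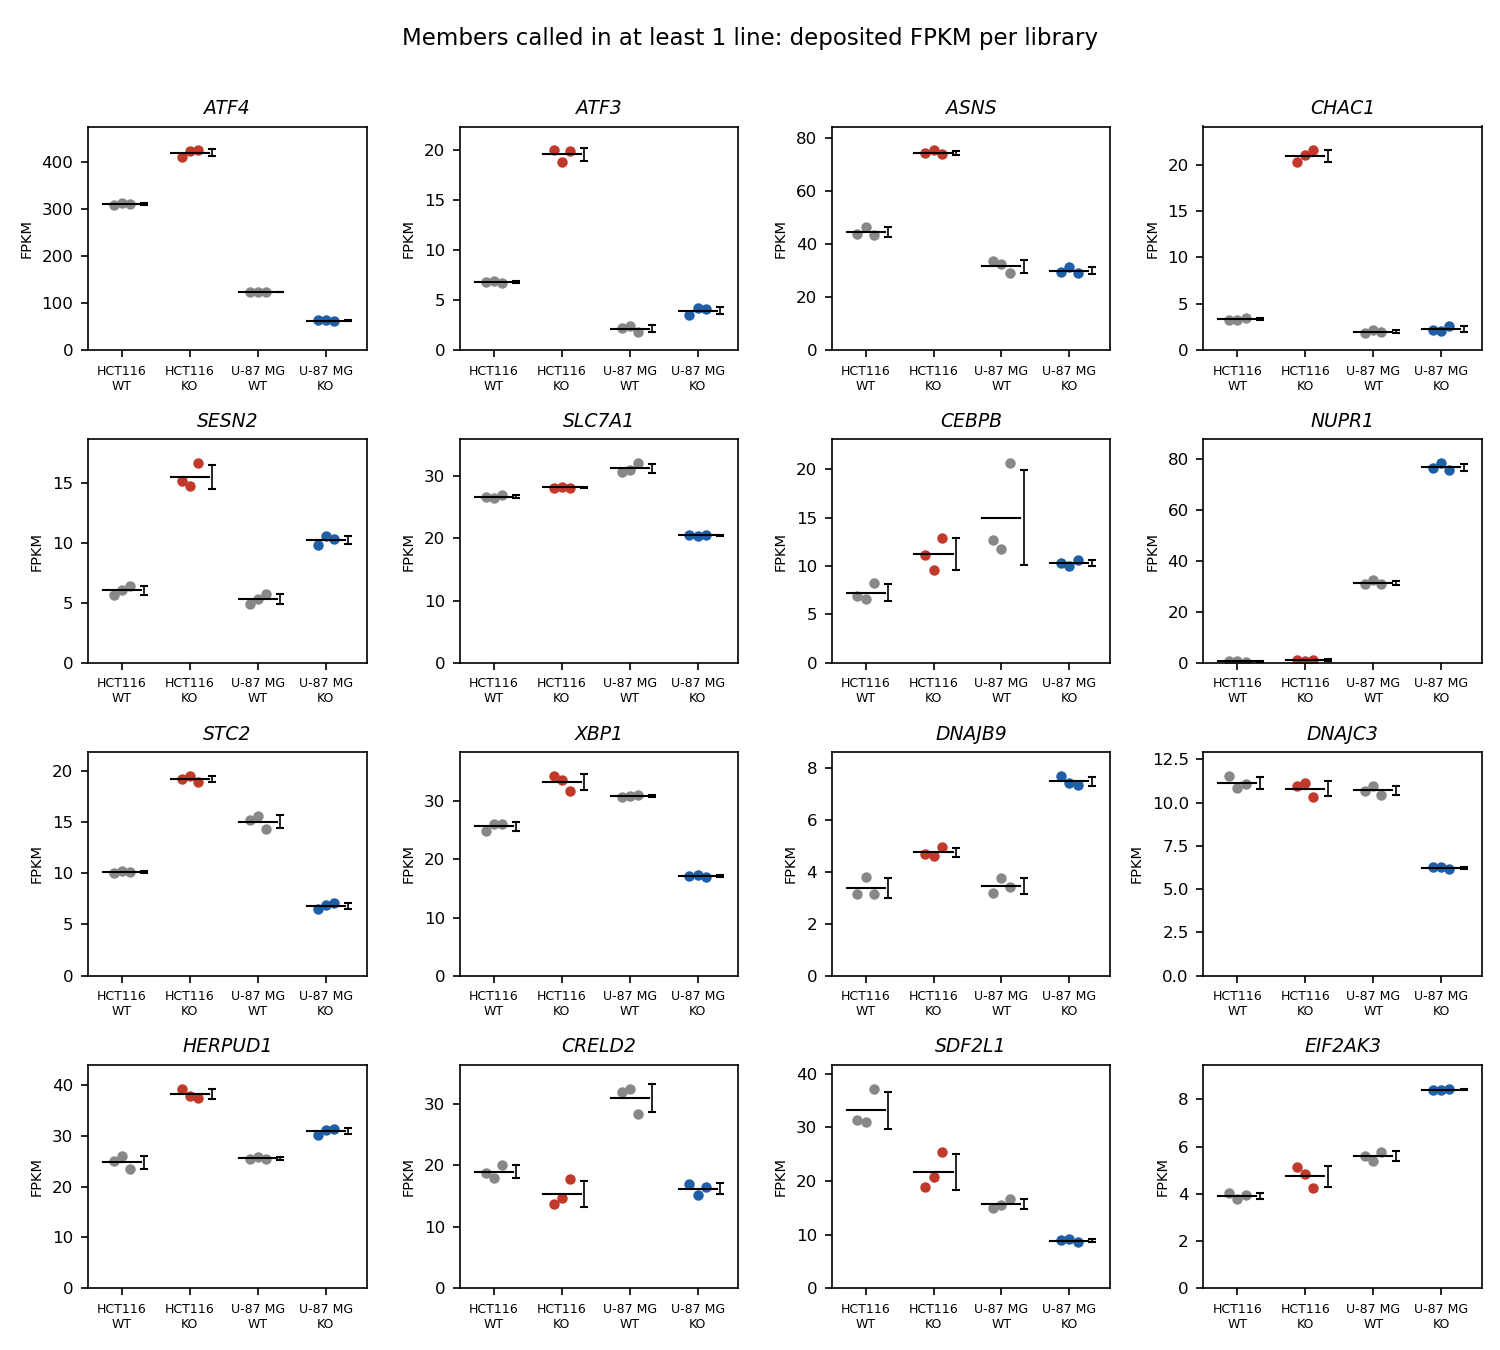
Deposited FPKM in each library (points) with the group mean (line) and SD (bar) for the 16 genes called in at least 1 line. CHAC1 is high in HCT116 KO libraries alone (20.3 to 21.5 FPKM), NUPR1 is low in HCT116 and high in U-87 MG, and STC2 and ATF4 move in opposite directions in the 2 lines.

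The difference of the knockout effect between the lines was tested directly, as the interaction in 1 edgeR fit of all 12 libraries. Of the 21 ATF4 arm genes, 10 had a higher effect in HCT116 than in U-87 MG and 0 a lower one, and 16.9% of the 15613 genes tested were called, 9.66% higher and 7.24% lower. The median difference of the arm was 0.51 on the log2 scale, against -0.01 over all genes. Both the 21 and that median include VLDLR, which had 0 counts in HCT116. Its difference could not be estimated (-0.25 with an SE of 573). The largest were CHAC1 at 2.56 ± 0.16 (edgeR adjusted p = 1.8e-14), STC2 at 2.14 ± 0.07 (edgeR adjusted p = 4.4e-21) and ATF4 at 1.50 ± 0.06 (edgeR adjusted p = 2.5e-20). CEBPB, PHGDH, ASNS, SLC7A1, ATF3, CEBPG and PSAT1 followed, between 0.66 and 1.26, and those of PSAT1 and CEBPG were not called with limma at a pseudocount of 1 (0.55 and 0.58). The value of CEBPB, 1.26 ± 0.30, became 0.95 without wild-type library 3 of U-87 MG. Of these 10 genes, ATF4 and PHGDH have low neighbours in U-87 MG as given above. For TRIB3, PSPH and NUPR1 the difference was 0.12 (95% interval -0.14 to 0.39), -0.17 (-0.36 to 0.02) and -0.23 (-0.95 to 0.48), so those of TRIB3 and PSPH are bounded and that of NUPR1 hardly is.

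In the ER arm, 3 genes had a higher effect in HCT116, XBP1 at 1.27 ± 0.08, DNAJC3 at 0.82 ± 0.08 and CRELD2 at 0.79 ± 0.12 (edgeR adjusted p = 7.9e-15, 1.4e-10 and 1.9e-06). All 3 have low neighbours in U-87 MG as given above. CALR alone had a lower one, at -0.76 ± 0.05 (edgeR adjusted p = 2.4e-13). DNAJB9 was at -0.57 ± 0.14 (edgeR adjusted p = 0.00086) and passed the fold threshold, at -0.67 to -0.59, without HCT116 KO library 3, HCT116 wild-type library 1 or 3, U-87 MG KO library 2 or 3, or U-87 MG wild-type library 2. The other 5 lumenal folding proteins had differences of -0.47 to -0.24, all under an adjusted p of 0.05 but under 1.5-fold. PPP1R15A differed by 0.69 ± 0.10 (edgeR adjusted p = 3.5e-06), and its call was lost without wild-type library 3 of U-87 MG, at 0.55, and with limma at that pseudocount, at 0.57.

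**Figure D4:**
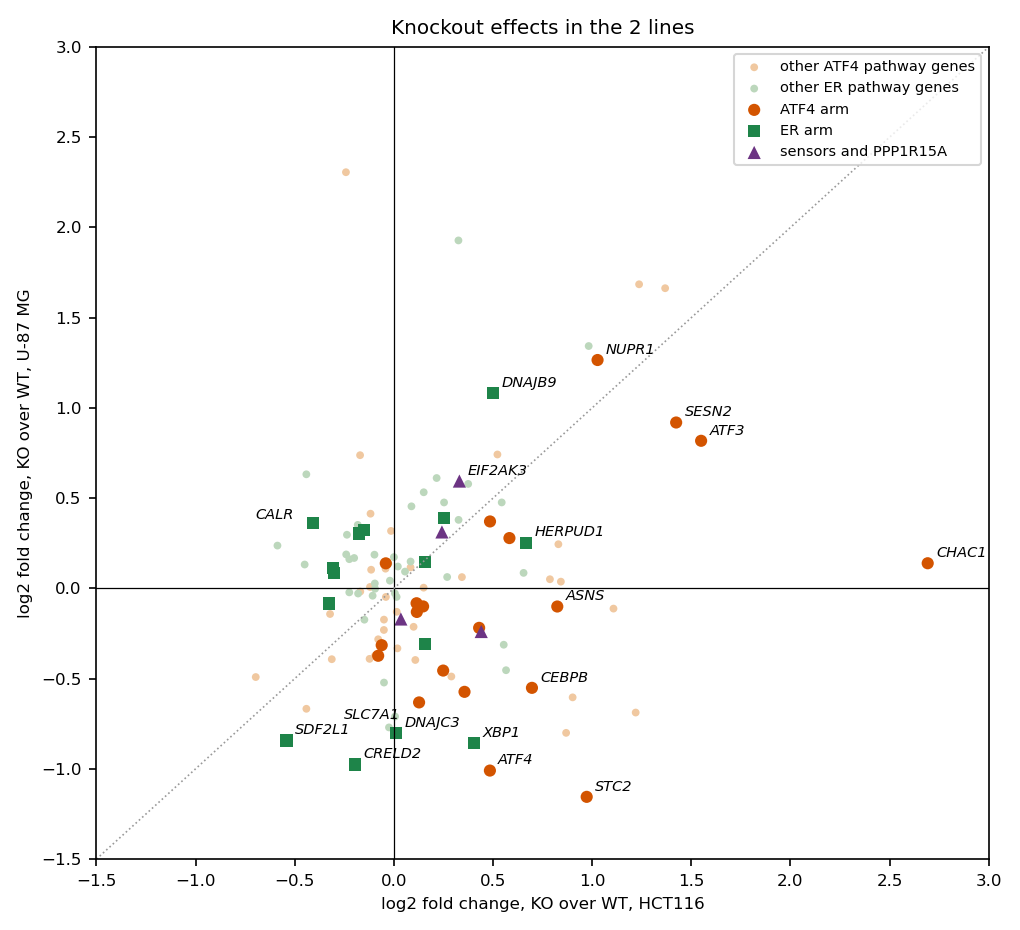
Log2 fold change in HCT116 (horizontal) against U-87 MG (vertical) for the genes tested in both lines, with a dotted line of equal effects. Of the ATF4 arm, 18 of 20 points lie below the line, CHAC1 far to the right at 2.69 and 0.14, and the ER arm falls on both sides.

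Wider lists of the same pathways were counted in the same fits. Of 39 other ATF4 pathway genes, 37 were tested in HCT116 and 10 rose while 0 fell (median log2 fold change 0.01), against 7.82% higher and 4.07% lower over all genes. The 4 with the smallest adjusted p were DDIT4, an inhibitor of mTORC1, at 1.24, SLC38A2, a transporter of neutral amino acids, at 0.83, SLC7A11, the cystine importer, at 1.11 and KLHL24, a ubiquitin ligase adaptor, at 1.37. JDP2, ADM2, PCK2, GDF15, SLC6A9 and GPT2 made up the rest, from 0.79 to 1.22. None of the 12 tRNA synthetases on the list, which are known ATF4 targets, was called in either line. They lay between -0.32 and 0.34 in HCT116 and between -0.49 and 0.06 in U-87 MG.

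In U-87 MG, 5 of 36 tested genes of that list rose and 4 fell (median -0.08), against 8.06% and 8.15% of all genes, and the number that fell is close to that share. The smallest adjusted p belonged to DDIT4 at 1.69, SESN3, a relative of SESN2, at 2.31, EIF2S1, the subunit of eIF2 that is phosphorylated, at -0.67 and KLHL24 at 1.66. EIF2S1, JDP2 and PCK2, which fell, lie on chromosome 14, where the median was -0.46 in this line, and the call of PCK2 was lost without KO library 1 or wild-type library 2. DDIT4 and KLHL24 thus rose in both lines, where they were at 34.6 to 36.6 and 1.27 to 1.35 FPKM in HCT116 wild type and at 77.3 to 82.9 and 3.06 to 3.53 in KO. GDF15, a secreted stress hormone, was called in opposite directions, at 115 to 138 FPKM in HCT116 KO against 65.9 to 76.0 and at 4.49 to 5.71 in U-87 MG KO against 7.59 to 11.2. Its difference between lines was 1.67 ± 0.18 (edgeR adjusted p = 2e-06).

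Of 40 other ER pathway genes, 39 were tested in HCT116. SEC24D, a coat subunit of vesicles leaving the ER, rose by 0.65 and CREBRF, a regulator of the unfolded protein response, by 0.98 on the log2 scale. HSPA13 fell by 0.59, a call that was lost on leaving out KO library 1, KO library 3, wild-type library 1 or wild-type library 2. These 2 risers and 1 faller compare with 7.82% higher and 4.07% lower over all genes. In U-87 MG 4 of 40 rose and 2 fell, near the 8.06% and 8.15% of all genes. PDIA5, a disulfide isomerase, was at 54.3, 55.9 and 53.4 FPKM in KO against 14.4, 13.8 and 13.8 (log2 fold change 1.93 ± 0.05, edgeR adjusted p = 4.5e-18), although 14.2% of its exon bases overlap SEC22A on the same strand. CREBRF was at 1.34. The genes that fell, ERO1A (-0.71) and SRP54 (-0.77), lie on chromosome 14 beside neighbours with medians of -0.65 and -0.80.

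The levels of the 40 genes in wild-type cells are given as a description, since line and read layout (single reads for HCT116, paired reads for U-87 MG) cannot be told apart. On the FPKM scale, CALR and HSP90B1 were highest in both lines, at 564 ± 5.93 and 440.3 ± 12.4 in HCT116 and 619 ± 26.7 and 378 ± 10.2 in U-87 MG. ATF4 was the third gene in order in HCT116 and the sixth in U-87 MG, at 311 ± 1.93 and 124 ± 0.620. In the ATF4 arm some genes were higher in HCT116, others were higher in U-87 MG and some overlapped. How often all genes differ between the lines in this way was not counted. The widest gaps were NUPR1, at 0.578 ± 0.249 in HCT116 and 31.3 ± 0.798 in U-87 MG, SLC7A5, at 146 ± 6.34 and 14.5 ± 0.960, and TRIB3, at 17.4 ± 0.584 and 2.30 ± 0.294. VLDLR was listed at 0 in HCT116 and was at 8.30 ± 0.169 in U-87 MG. In the ER arm the main chaperones were closer, with HSPA5 at 215 ± 3.82 and 207 ± 1.21, while EDEM1 was at 3.10 ± 0.0465 and 14.6 ± 1.10 and SEL1L at 8.75 ± 0.722 and 31.5 ± 0.321.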

How the data were processed

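The authors aligned with STAR 2.5.2 on GRCh38, per the submitters' processing notes. They deposited whole-number read counts per gene symbol from featureCounts 1.6.1 and, separately, FPKM values that the authors computed with Cufflinks 2.2.1. Strand settings and the handling of reads with several matches are not given in the sources used, so antisense genes and copies can share counts.

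Counts of the 6 libraries of each line were fitted with edgeR 4.0.16 (R 4.3.3, TMM, filterByExpr, robust quasi-likelihood F-test, two-sided) and adjusted by Benjamini-Hochberg over all genes tested. The difference between lines was the interaction in a fit of all 12 libraries. Calls required more than a 1.5-fold change, an adjusted p below 0.05 and a mean over 0.5 FPKM (in either line for the difference). FPKM served for levels and for limma 3.58.1 with pseudocounts of 1 and 0.1. DESeq2 1.42.0 was an alternative. The test was checked on simulated counts. Positions came from GENCODE on GRCh38 for 25638 of 27788 symbols (92.3%), and promoter windows from RefSeq.

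The 40 genes and the pathway lists were chosen with earlier results of these data known. All 40 are accounted for in HCT116, while in U-87 MG some genes that were not called are counted without a value. Those called in a line or for the difference, and the sensors, are named with values. Up to 4 called genes of each pathway list are named by adjusted p, and further names were added after their values were seen. Replicate numbers were not used to pair the libraries. In HCT116 the correlations of deviations between same-numbered KO and wild-type libraries were 0.0118 to 0.0781. Those between other numbers were -0.0580 to 0.0202. In U-87 MG they were -0.0702 to -0.0181 for the same number and -0.0511 to 0.0918 for others. The same-numbered values were thus all positive in HCT116, and whether they reflect a pairing was not tested. Counting limits cover counting error only.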

Additional observations from a re-analysis of the deposited data

Results flagged for a closer look

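The knockout effect differed between the lines in 15 of the 40 genes, by edgeR's test of the difference itself (effect in HCT116 minus effect in U-87 MG, log2 scale). Over all 15613 genes tested, 16.9% were called for the difference, 9.66% higher and 7.24% lower. Each of the 15 is repeated here for a closer look. In the ATF4 arm the differences were 2.56 for CHAC1, 2.14 for STC2, 1.50 for ATF4, 1.26 for CEBPB, 0.94 for PHGDH, 0.93 for ASNS, 0.77 for SLC7A1, 0.74 for ATF3, 0.71 for CEBPG and 0.66 for PSAT1. ATF3 was called higher in both lines and STC2 was called in opposite directions. In the ER arm they were 1.27 for XBP1, 0.82 for DNAJC3, 0.79 for CRELD2 and -0.76 for CALR, and PPP1R15A differed by 0.69.

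ATF4, XBP1 and CRELD2 lie on chromosome 22, whose 314 tested genes had a median log2 fold change of -0.97 in U-87 MG, and DNAJC3 and PHGDH lie among neighbours with medians of -0.73 and -0.52. The neighbours of CHAC1, STC2, CALR and ASNS within 5 Mb had medians of 0.01, -0.02, 0.03 and 0.07 in that line. Those of ATF3, SLC7A1 and PSAT1 had medians of -0.17, -0.14 and -0.02, and those of CEBPB, CEBPG and PPP1R15A of 0.03, 0.003 and 0.09.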

How the results depend on the processing

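No called value among the 40 genes changed sign under any alternative. With the adjusted p alone, the ATF4 arm had 17 genes higher in HCT116 and 6 higher and 10 lower in U-87 MG, and the ER arm had 6 higher and 8 lower in HCT116 and 7 higher and 6 lower in U-87 MG. Over all genes these shares were 29.2% higher and 28.1% lower in HCT116 and 29.0% and 30.2% in U-87 MG. With limma on log2 FPKM at either pseudocount, 1 ER arm gene was lower in HCT116. With limma at a pseudocount of 1, 1 ATF4 arm gene had a lower effect in HCT116 than in U-87 MG. Without the low-count filter, 2 ER arm genes did. Leaving out 1 library at a time gave 1 to 2 ER arm genes higher and 0 to 1 lower in HCT116, and 1 to 2 with a lower effect in HCT116. The cause was not tested.

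Among all genes in HCT116, 65.8% of calls were higher, against 53.0% with limma at a pseudocount of 1 and 55.9% at 0.1. With the replicate number as a block, 1680 genes were called in HCT116, 2221 in U-87 MG and 2641 for the difference, against 1672, 2227 and 2639 without it, and no call among the 40 genes changed. The numbers are not given as a pairing in the labels. Of the 40 genes, NUPR1 in HCT116 and ERN1 in U-87 MG are limited by depth, with as few as 3 and 78 counts in a library.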
